A study of Mus musculus with 6 samples.

Results

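The data describe the long noncoding RNA genes that peritoneal macrophages expressed at measurable levels, 180 genes of the 8385 rows that the deposited table annotates as lincRNA (5559 rows) or antisense (2826 rows). They were selected on their mean FPKM (fragments scaled by gene length and by the size of the library) over the 6 libraries, which had to be at least 1, and the ribosomal RNA copies Gm26917 and Gm15564 were left out. The 180 genes comprised 81 lincRNA and 99 antisense genes, 111 with a predicted Gm symbol, 29 with a Rik symbol and 40 with other symbols. Genes such as Trmt61b (antisense) and Zfp469 (lincRNA) entered by these labels, and whether any of the 180 codes for a protein was not tested. Since the level chose them, their levels are a description. Just inside the limit were Gm20300 (mean 1.00 FPKM), Gm26873 (1.02 FPKM) and Map2k3os (1.02 FPKM), and just outside it Gm12868 (0.999 FPKM), Gm26813 (0.992 FPKM) and Gm16230 (0.984 FPKM).

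The cells were macrophages collected from the peritoneal cavity of wild-type male C57BL/6J mice aged 6 to 8 weeks, 5 days after a thioglycolate injection, which draws macrophages into the cavity. Control cells were untreated. Model cells were given LPS at 500 ng/mL for 5.5 h and then ATP at 2 mM for 0.5 h, the priming and triggering steps of the NLRP3 inflammasome. In MUS cells the LPS and ATP steps were identical, and muscone, the macrocyclic ketone of musk, was present at 50 µM from 5 h after LPS. Each group had 2 libraries, whose replicate number the labels also give as their batch, and no source used here states how many mice were pooled for a library. The p-values below therefore measure the spread between these libraries, which may be technical.

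Long noncoding RNAs are transcripts that carry no long protein-coding frame. Some work in the nucleus as scaffolds, some are precursors from which microRNAs or small nucleolar RNAs are cut, and many are transcribed opposite to, or from the same promoter region as, a protein-coding gene. In macrophages LPS acts through Toll-like receptor 4, which activates NF-κB and AP-1 and, through type I interferon, the factors that bind interferon-stimulated response elements (ISRE). Several long noncoding RNAs are known as targets of these factors, among them the precursor of miR-155 and lincRNA-Cox2.

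The microRNAs that lie inside the transcripts are shown because they are what Mir155hg, Mir17hg, Mir142hg and F630028O10Rik are known for, and because their seeds define their targets. RefSeq places 19 mature microRNAs with 17 different seeds inside 5 of the 180 genes, counting Gm15987, which holds miR-7649. Those of the 4 named hosts that are best studied are printed 5′ to 3′ with the seed (bases 2 to 8) in capitals. The libraries measured poly-A RNA, so they hold the host transcripts and not the mature microRNAs.
mmu-miR-155-5p (Mir155hg): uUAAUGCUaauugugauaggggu
mmu-miR-155-3p (Mir155hg): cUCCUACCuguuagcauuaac
mmu-miR-17-5p (Mir17hg): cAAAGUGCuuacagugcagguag
mmu-miR-20a-5p (Mir17hg): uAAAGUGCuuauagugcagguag
mmu-miR-19a-3p (Mir17hg): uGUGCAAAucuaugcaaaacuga
mmu-miR-19b-3p (Mir17hg): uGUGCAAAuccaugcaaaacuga
mmu-miR-142a-3p (Mir142hg): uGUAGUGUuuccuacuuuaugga
mmu-miR-223-3p (F630028O10Rik): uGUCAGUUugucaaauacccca
miR-17-5p and miR-20a-5p share the seed AAAGUGC, and miR-19a-3p and miR-19b-3p share GUGCAAA. The other 4 printed sequences each have a seed of their own.

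Promoters are shown for 3 of the genes that changed and whose RefSeq start is also the start in the table. They are AW112010 and Ptgs2os2, which rose in Model vs. Control, and Dnmt3aos, which fell. Each window covers 250 bases before and 50 bases after the start in the RefSeq annotation of GRCm38.p6, written along the strand of the gene. Capitals mark every match to the 3 motifs searched on both strands: GGANTTTCC (NF-κB-like), GAAANNGAA (ISRE-like) and TGANTCA (AP-1-like).
AW112010 (chr19:11050517-11050816, minus strand): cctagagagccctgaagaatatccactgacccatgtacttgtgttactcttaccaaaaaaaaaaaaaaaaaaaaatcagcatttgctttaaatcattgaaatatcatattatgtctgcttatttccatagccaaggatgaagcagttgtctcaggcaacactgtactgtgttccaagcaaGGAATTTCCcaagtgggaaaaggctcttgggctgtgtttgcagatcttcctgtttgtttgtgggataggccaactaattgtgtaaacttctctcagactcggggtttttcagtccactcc
Ptgs2os2 (chr1:150164899-150165198, minus strand): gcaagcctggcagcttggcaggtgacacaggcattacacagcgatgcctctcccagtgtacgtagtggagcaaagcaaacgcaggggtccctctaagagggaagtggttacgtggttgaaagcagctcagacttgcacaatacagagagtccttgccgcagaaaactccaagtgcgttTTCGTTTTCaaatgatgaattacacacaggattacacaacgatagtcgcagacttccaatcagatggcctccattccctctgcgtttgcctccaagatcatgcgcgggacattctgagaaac
Dnmt3aos (chr12:3862195-3862494, minus strand): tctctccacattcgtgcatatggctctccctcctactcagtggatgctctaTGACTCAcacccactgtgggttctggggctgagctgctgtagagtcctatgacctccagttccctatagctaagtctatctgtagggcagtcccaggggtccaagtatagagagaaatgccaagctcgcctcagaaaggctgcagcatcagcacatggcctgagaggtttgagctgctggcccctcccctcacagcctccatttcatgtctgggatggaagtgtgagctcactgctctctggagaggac
The match began at base -70 in AW112010, at base -72 in Ptgs2os2, where it is the ISRE-like motif on the other strand, and at base -199 in Dnmt3aos. A match is a run of letters and was not tested as a binding site. The 3 genes shown were picked by hand, and each holds a match. A230028O05Rik and Gm15987 also rose and have the same start in both annotations, but their windows hold 0 matches to the 3 motifs.

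The recovered number of fragments on genes ranged from 15526321 to 17135442 per library, of which the 180 genes took between 0.212% and 0.341%. The macrophage identity of the cells could be read from the table, since 10 of 10 macrophage markers had a mean FPKM of at least 1, with a summed level between 9899 and 14626 FPKM. Of the other marker lists, 0 of 8 T and innate lymphocyte genes, 1 of 6 B cell genes, 1 of 7 neutrophil genes, 1 of 4 eosinophil genes and 0 of 5 mast cell genes reached that level. The summed neutrophil list ran from 13.7 to 112 FPKM and was highest in Model replicate 1, almost wholly as S100a8, while Ly6g and Elane were listed at 0 in every library. Model replicate 1 stood apart from the other libraries. It had fragments on 24906 genes, against 17406 to 19200 in the others, and 2195 FPKM of the repeat-derived Gm10800, against at most 4.70 FPKM elsewhere. The part of S100a8 and Gm10800 in the results below was not tested.

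The share of the 180 genes with replicate 2 over 1 log2 unit above replicate 1 exceeded that of all genes in every group. The excess was largest in Model. On the log2(FPKM + 1) scale, 44 of the 180 genes (24.4%) were over 1 higher in Model replicate 2 than in replicate 1, compared with 5.01% of the 9794 genes of any kind that reached the same mean level. Among the antisense genes it was 35 of 99, and among the lincRNA genes 9 of 81. In the opposite direction, 5 of the 180 genes were over 1 higher in Model replicate 1. Control replicate 2 was over 1 above Control replicate 1 in 20 of the 180 genes (11.1%, against 5.93% of all genes). It was over 1 below it in 4 (2.22%, against 3.15%). The MUS libraries differed by over 1 in either direction in 6 of the 180 genes. MUS replicate 2 was the higher in 4 of them (2.22%, against 1.09% of all genes). The 180 genes had lower levels than most genes tested, and the part of the level in these shares was not tested. Across the 180 genes the level in Model replicate 2 correlated with that in MUS replicates 1 and 2 at r = 0.926 and 0.941, but with that in Model replicate 1 at r = 0.751. These are correlations across genes, which are not independent replicates.

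**Figure D1:**
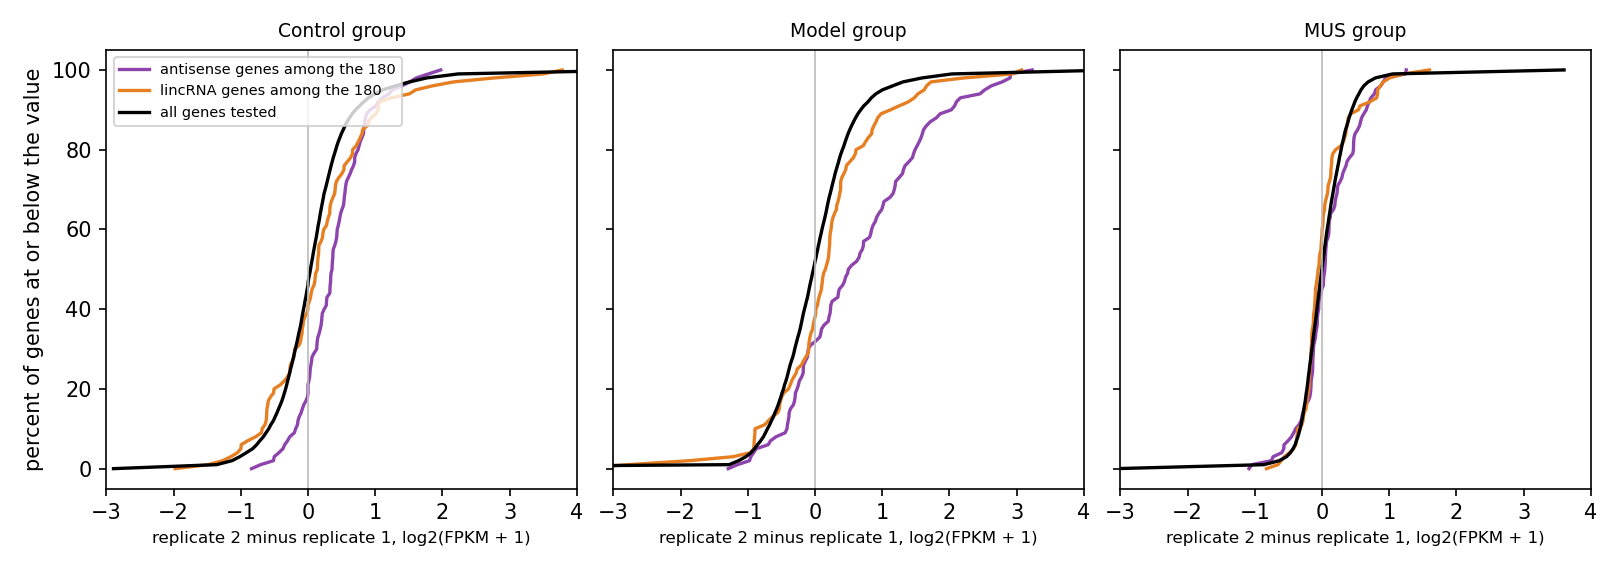
Differences between the 2 replicates of each group on the log2(FPKM + 1) scale (x axis, drawn from -3 to 4, beyond which a few genes lie) against the percent of genes at or below the value (y axis), for the 99 antisense genes, the 81 lincRNA genes and all 9794 genes tested. In the Model panel the antisense curve runs to the right of the others, with a median of 0.50 against -0.02 for all genes, while in the MUS panel the 3 curves nearly coincide. In the Control panel the same medians are 0.36 and 0.04.

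The levels were low and very unequal. The mean over the 6 libraries ranged from 1.00 to 540 FPKM, with a median of 2.03 FPKM, compared with 6.32 FPKM for the 8648 protein-coding genes above the same limit. A mean over 10 FPKM was reached by 19 genes, while 87 stayed under 2 FPKM. AW112010 and Mir155hg alone held 45.9% of the summed level. The mean of the group was at least 1 FPKM in all 3 groups for 90 of the 180 genes. Another 57 were under 1 FPKM in Control and at least 1 FPKM in both Model and MUS, and 12 showed the opposite. In 8 genes a single library held over 50% of the summed level, which in the case of Gm47118 was MUS replicate 1. The others among the 3 highest of these 8 were Dnmt3aos, whose highest library was Control replicate 1, and Gm17133, whose highest was Model replicate 2. For Gm26870, one of the remaining 5, which was chosen after its values were seen, Model replicate 1 held 99.2% of the summed level.

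The comparison of Model vs. Control showed which of these genes changed with LPS and ATP. Of the 180 genes, 33 rose (18.3%), against 9.5% of all genes tested that were called higher. At the other end 7 genes fell (3.89%), against 5.56% of all genes tested. A call needed an adjusted p of at most 0.05 in limma and an absolute log2 fold change over 1, the thresholds that the study used. The median log2 fold change was 0.43 over the 180 genes and 0.04 over all genes. The limit of 1 FPKM was set on a mean in which 4 of the 6 libraries are stimulated, so a gene low in Control could enter only through the libraries in which it was high, and 87 of the 180 genes had a mean under 2 FPKM. The limit can thereby favour increases among low genes (57 genes were under 1 FPKM only in Control and 12 at least 1 FPKM only there). The shares and medians of the 180 genes and of their classes, here and in MUS vs. Control, are therefore a description, and nothing is read from their difference to all genes. The antisense genes had 21 increases and 2 decreases among 99, with a median of 0.50, and the lincRNA genes had 12 increases and 5 decreases among 81, with a median of 0.26. For each of the 40 called genes, the Model libraries lay beyond both Control libraries, which fixes the same direction in both batches. Over all 9794 genes tested, both Model libraries were above both Control libraries in 3195 and below them in 2791. The thresholds of a call favour such a separation, so it is no added support for the calls. For any 1 gene the smallest p of an exact permutation test between 2 groups of 2 libraries is 0.333, and the calls therefore rest on the spread that limma shares among genes.

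Some of these counts depended on single libraries and on the scale. Without Control replicate 1, 13 genes rose and 4 fell, and without Control replicate 2, 33 rose and 12 fell. Without MUS replicate 1 or without MUS replicate 2, which enter only the estimate of the spread, 14 rose and 2 fell in either case. Without Model replicate 1 the counts were 32 and 5 and the median was 0.67, and without Model replicate 2 they were 23 and 8 with a median of 0.17. Scaling each library to its total of recovered fragments lowered the median of all genes to -0.40 and left the 180 genes at 0.15, with 21 increases and 22 decreases. The share of increases among the calls was thereby 48.8% in place of 82.5%. Over all genes the total scaling gave 646 increases and 1554 decreases, a share of 29.4% in place of 63.1%. Relative to the median of all genes, the 180 genes stood 0.39 higher with the deposited FPKM and 0.56 higher with the total scaling. Both scalings used the same genes, chosen by their mean FPKM, so nothing is read from these differences either.

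The largest increase was that of Mir155hg, the precursor of miR-155, a microRNA that restrains several inhibitors of inflammatory signalling. Mir155hg (chr16:84703167-84715245, plus strand, 3 exons) had 0.153 and 14.9 FPKM in the Control libraries, 261 and 270 in Model and 284 and 245 in MUS. Its Control libraries were thus far apart while the 4 stimulated libraries lay close together. On the log2 scale it rose by 5.96 ± 1.04 (SE, limma adjusted p = 0.0120). Of the 18 alternatives tried for each named gene, 1 only dropped the fold threshold and by construction can lose no call. The call of Mir155hg was kept under 14 of the 18. It was lost without the filter on low values, without Model replicate 1 on the deposited or the total scaling, and without Model replicate 2, where the lone Model library was taken to vary like the other groups.

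AW112010, a transcript known to be induced in activated macrophages and reported to encode a small protein, had the highest level of all (chr19:11047617-11050566, minus strand, 4 exons). It stood at 10.1 and 119 FPKM in Control, against 1031 and 549 in Model and 896 and 635 in MUS, a log2 fold change of 4.37 ± 1.00 (limma adjusted p = 0.0285). The stimulated libraries did not overlap with the Control libraries, of which replicate 2 was again the higher. This call was kept under 10 of 18 alternatives, and those that lost it include each fit without a Model or a MUS library and quantile normalization.

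Ptgs2os2, also known as lincRNA-Cox2, is a long intergenic transcript beside the cyclooxygenase gene Ptgs2 that was described as an LPS-induced regulator of immune genes (chr1:150159043-150164948, minus strand, 2 exons). Its levels were 0.0752 and 1.25 FPKM in Control, compared with 35.4 and 26.7 in Model and 28.3 and 25.2 in MUS. An increase of 4.35 ± 0.37 on the log2 scale (limma adjusted p = 0.00157) passed the thresholds under every alternative, including each library left out. Its 50-base stretches occur in no other gene, and it shares no exon base with another gene.

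Gm14005, described elsewhere as Morrbid, a regulator of the survival of short-lived myeloid cells, had 0.183 and 1.20 FPKM in Control, against 3.13 and 3.06 in Model and 3.87 and 3.27 in MUS. Its log2 fold change was 1.34 ± 0.31 (limma adjusted p = 0.0297), which was lost under 11 of 18 alternatives. Snhg6, the host of a small nucleolar RNA, rose from 5.15 and 9.80 FPKM to 33.6 and 17.6 FPKM, a log2 fold change of 1.64 ± 0.40 (limma adjusted p = 0.0331). Its MUS libraries had 25.7 and 21.2 FPKM. The call of Snhg6 was kept under 10 of 18 alternatives, and was lost, among others, with the total scaling and without Control replicate 1, Model replicate 1 or either MUS library.

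**Figure D2:**
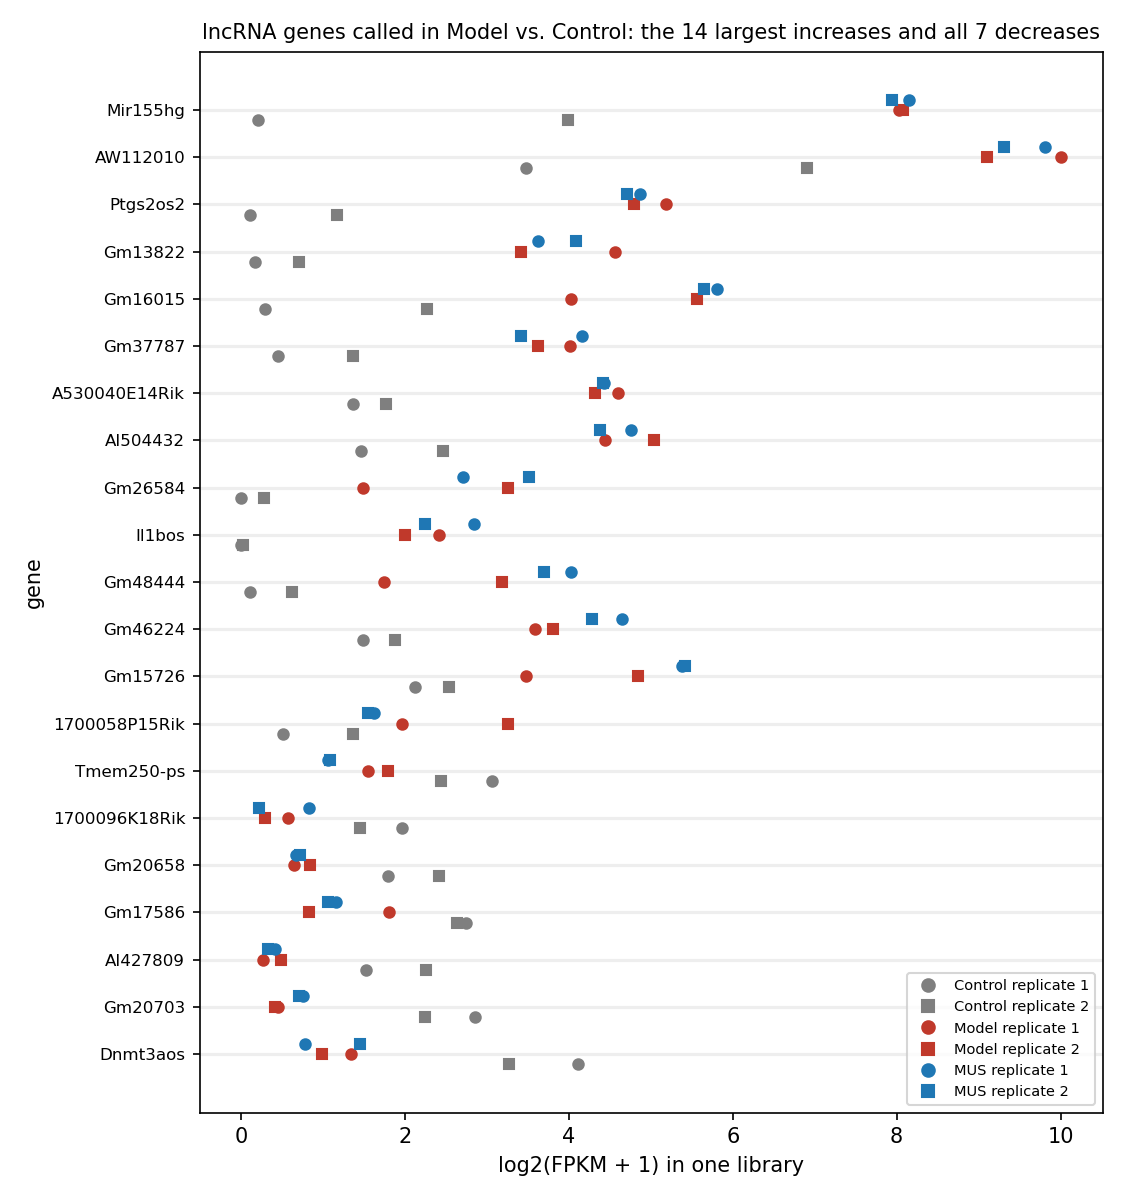
log2(FPKM + 1) in each library (x axis) of the 14 genes with the largest increases and of the 7 genes that fell in Model vs. Control (y axis), with colours for the groups and circles and squares for replicates 1 and 2. The Control points lie left of all Model points in the 14 upper rows and right of them in the 7 lower rows, and those of Mir155hg and AW112010 are over 3 log2 units apart.

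AI504432, a lincRNA gene 1434 bases from the potassium channel gene Kcna3, had 1.77 and 4.54 FPKM in Control, compared with 20.8 and 32.0 in Model and 26.0 and 19.8 in MUS. It rose by a log2 fold change of 2.78 ± 0.39 (limma adjusted p = 0.00625). Kcna3 itself did not pass, with 1.29 and 1.95 FPKM in Control and 1.64 and 17.001 FPKM in Model. The lincRNA gene was therefore high in both Model libraries while its neighbour was high in replicate 2. 4930430E12Rik, the third in level of the 180 genes, rose from 31.0 and 23.8 FPKM to 82.9 and 76.5 FPKM (log2 fold change 1.52 ± 0.29, limma adjusted p = 0.0152) and had 108 and 116 FPKM in MUS. Its call was kept under 10 of 18 alternatives, and was lost, among others, with the total scaling, under quantile normalization and without Model replicate 1 or either MUS library.

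The antisense genes with the largest increases were Gm13822, Gm16015, Gm37787 and A530040E14Rik. Gm13822 lies opposite Oasl1, an interferon-induced gene of the oligoadenylate synthetase family. It had 0.126 and 0.632 FPKM in Control, against 22.7 and 9.70 in Model and 11.3 and 16.0 in MUS, a log2 fold change of 3.56 ± 0.41 (limma adjusted p = 0.00340), which passed under every alternative. Oasl1 rose as well, by 5.03 on the same scale. The overlap took 10.98% of the exon bases of Gm13822. The library protocol describes no marking of the strand, so reads from a gene and its antisense partner cannot be told apart where their exons overlap. Unspliced reads of a coding gene can also fall on an antisense gene inside its body that shares no exon base with it. Their part in the levels of the antisense genes was not tested.

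Gm16015, opposite the NAD hydrolase gene Cd38, shares no exon base with it or another gene. It had 0.224 and 3.81 FPKM in Control, compared with 15.3 and 46.3 in Model and 55.0 and 49.1 in MUS (log2 fold change 3.52 ± 0.70, limma adjusted p = 0.0186). Model replicate 1 was the lowest of the stimulated libraries, and the call was kept under 14 of 18 alternatives, with losses that include those without Control replicate 1 and without Model replicate 2. Cd38 had 4.87 and 103 FPKM in Control and 405 and 335 FPKM in Model and did not pass, as its Control libraries were far apart.

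Il1bos runs opposite Il1b, the gene of the cytokine precursor that the inflammasome cleaves, and 0.839% of its exon bases overlap another gene. It was listed at 0 and 0.0147 FPKM in Control, which is 1 fragment in all, and had 4.33 and 2.99 FPKM in Model and 6.15 and 3.76 in MUS. It rose by 2.19 ± 0.27 (limma adjusted p = 0.00427) on the log2(FPKM + 1) scale, which understates the change of a gene near 0 in Control. By fragments, the ratio of Model to Control was 494 with an exact 95% counting interval of 88.1 to 19589, which covers counting error only. Il1b rose by a log2 fold change of 9.67, the largest of the neighbours, to 7646 and 4750 FPKM in Model. The part of its unspliced reads in the level of Il1bos was not tested.

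A530040E14Rik, in a cluster of Sp100-related genes on chromosome 1, was among the most even of the genes that rose (chr1:85105946-85114035, plus strand, 7 exons). Its levels were 1.58 and 2.41 FPKM in Control, against 23.3 and 18.9 in Model and 20.5 and 20.4 in MUS, a log2 fold change of 2.89 ± 0.25 (limma adjusted p = 0.00157) that passed under every alternative. Of its 50-base stretches, 22.8% also occur in other genes, so its reads could in part belong to a copy. Gm37787 rose by 2.91 ± 0.38 (limma adjusted p = 0.00497), from 0.374 and 1.57 FPKM to 15.1 and 11.4 FPKM, but 72.3% of its exon bases overlap with those of other genes and it lies opposite Slamf7, a surface receptor gene that rose by 1.88. Gm48444, opposite the activin subunit gene Inhba, had 0.0763 and 0.534 FPKM in Control, compared with 2.35 and 8.11 in Model and 15.2 and 11.9 in MUS (log2 fold change 2.10 ± 0.46, limma adjusted p = 0.0242). Gm15726, opposite the ubiquitin ligase gene Mid1, had 3.35 and 4.81 FPKM in Control, against 10.2 and 27.6 in Model and 40.8 and 41.8 in MUS (1.83 ± 0.44, limma adjusted p = 0.0316). Both were lower in Model replicate 1 than in Model replicate 2, and their calls were kept under 12 and 10 of 18 alternatives, with a loss in both without Control replicate 1.

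Of the other genes that rose, Peak1os (1.05 ± 0.24, limma adjusted p = 0.0266) kept its call under 5 of 18 alternatives. AC168220.3 (1.25 ± 0.25, limma adjusted p = 0.0178), opposite Dopey2, had 0.233 and 0.542 FPKM in Control and 2.64 and 1.95 in Model. Its call was kept under 9 of 18 alternatives, and the losses include those without Control replicate 1, Model replicate 1 or either MUS library. Gm46224, 1700058P15Rik and Gm15987, which also rose, were chosen for naming after their values were seen, and some of the 33 genes are not named. Gm46224, a lincRNA gene with no coding neighbour, had 1.80 and 2.67 FPKM in Control, 11.1 and 13.0 in Model, then 24.1 and 18.5 in MUS, where both libraries were above both Model libraries. 1700058P15Rik, opposite the actin regulator gene Vasp, had 0.424 and 1.59 FPKM in Control, 2.92 and 8.60 in Model, then 2.08 and 1.94 in MUS, below both Model libraries. Gm15987, the host of miR-7649, had 0.0196 and 0.176 FPKM in Control, 2.13 and 1.68 in Model, then 1.54 and 1.38 in MUS. Their log2 fold changes in Model vs. Control were 2.02 ± 0.26, 1.68 ± 0.46 and 1.40 ± 0.23, and the smallest increase among the 33 was 1.05.

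The genes that fell were led by Dnmt3aos, which lies opposite the de novo DNA methyltransferase gene Dnmt3a (chr12:3859293-3862244, minus strand, 4 exons). It had 16.3 and 8.68 FPKM in Control, compared with 1.53 and 0.979 in Model and 0.717 and 1.73 in MUS. Its decrease was -2.53 ± 0.36 (limma adjusted p = 0.00625), and every stimulated library lay below both Control libraries. Dnmt3a fell as well, by 2.00 on the log2 scale, from 31.8 and 22.1 FPKM to 4.74 and 7.24 FPKM. Of the exon bases of Dnmt3aos, 9.60% overlap with another gene.

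AI427809, known as MeXis, amplifies expression of the cholesterol transporter gene Abca1 downstream of liver X receptors. It had 1.88 and 3.78 FPKM in Control, against 0.209 and 0.409 in Model and 0.335 and 0.260 in MUS, a decrease of -1.51 ± 0.30 (limma adjusted p = 0.0184). Gm20703, at a distance of 8161 bases from the repressor gene Tgif1, had 6.25 and 3.75 FPKM in Control and 0.368 and 0.335 in Model (-2.12 ± 0.26, limma adjusted p = 0.00427), whereas Tgif1 did not pass, at 0.60. Gm17586 begins 168 bases from the start of Mafg, a small Maf transcription factor gene, on the opposite strand. It had 5.68 and 5.199 FPKM in Control and 2.50 and 0.782 in Model (-1.37 ± 0.33, limma adjusted p = 0.0314), while Mafg stood at 0.02. The remaining decreases were those of Gm20658 (-1.37), 1700096K18Rik (-1.28) and Tmem250-ps (-1.07). The calls of AI427809, Gm17586, Gm20658, 1700096K18Rik and Tmem250-ps were kept under 12, 9, 11, 7 and 9 of 18 alternatives, and each was lost without either MUS library.

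The nuclear and long-studied transcripts gave no call among 5 genes in Model vs. Control, with a median log2 fold change of -0.05. Neat1, the scaffold of paraspeckles, had between 7.48 and 9.84 FPKM in the 6 libraries, and 2900097C17Rik, known as Norad, a sponge of Pumilio proteins, between 19.6 and 25.5 FPKM. The groups overlapped in both genes. Tug1 ranged from 6.94 to 12.7 FPKM and Airn, the imprinted transcript across Igf2r, from 0.532 to 2.07 FPKM. Malat1, a transcript of nuclear speckles, had 31.5 and 33.8 FPKM in Control, compared with 17.5 and 55.9 in Model and 68.6 and 90.7 in MUS, so that the Model libraries lay on both sides of Control. Among all 180 genes, 35 (19.4%) stayed within a range of 1 log2 unit over the 6 libraries, compared with 46.2% of all genes tested. The 180 genes also had lower levels than most genes tested, and the part of the level in this share was not tested.

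Of 5 hosts of small RNAs, Mir155hg and Snhg6 rose and 0 fell. The shares over all genes tested, 9.5% called higher and 5.56% called lower, stand beside this count and those of the lists that follow, and in lists of 5 to 15 genes no difference from them was tested. Mir17hg, the precursor of the miR-17 to miR-92a cluster whose shared seeds are printed above, had 1.68 and 2.55 FPKM in Control, against 4.01 and 3.67 in Model and 2.81 and 2.42 in MUS (log2 fold change 0.65 ± 0.22, limma adjusted p = 0.0909). Both Model libraries were above both Control libraries, but the difference did not pass. Mir142hg, the precursor of the blood cell microRNA miR-142, had 3.58 and 1.30 FPKM in Control, compared with 0 and 1.44 in Model and 0.492 and 0.458 in MUS (-1.05 ± 0.48, limma adjusted p = 0.175). Epb41l4aos, also a snoRNA host, had 8.14 and 1.32 FPKM in Control and 7.09 and 2.10 in Model, which overlap. F630028O10Rik, whose transcript holds the myeloid microRNA miR-223, had 3.31 and 2.20 FPKM in Control, against 0.817 and 0.901 in Model and 0.904 and 1.05 in MUS. Its difference in Model vs. Control had a limma adjusted p of 0.0313 but a log2 fold change of -0.998 ± 0.24, which falls just short of the fold threshold.

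Of 11 genes studied in immune cells, 4 rose (AW112010, Mir155hg, Ptgs2os2 and Gm14005) and AI427809 fell. The list includes genes known to respond to LPS, so its count is not independent evidence of their direction. Gm16685, near the interleukin gene Il7, had 0 and 0.686 FPKM in Control and 0.890 and 2.80 in Model (1.04 ± 0.39, limma adjusted p = 0.112). Of 15 named antisense or opposite-strand genes, Ptgs2os2, Il1bos and Peak1os rose and Dnmt3aos fell, with a median of 0.33. Kdm6bos, opposite the histone demethylase gene Kdm6b, did not pass at 1.03 ± 0.35 (limma adjusted p = 0.0867), and did pass with the replicate number as a block (adjusted p = 0.0412). The other 10 had log2 fold changes between -0.31 and 1.07, including Zeb2os (0.51), Brip1os (0.48), Rab10os (0.12) and Far1os (-0.01), none of them called.

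**Figure D3:**
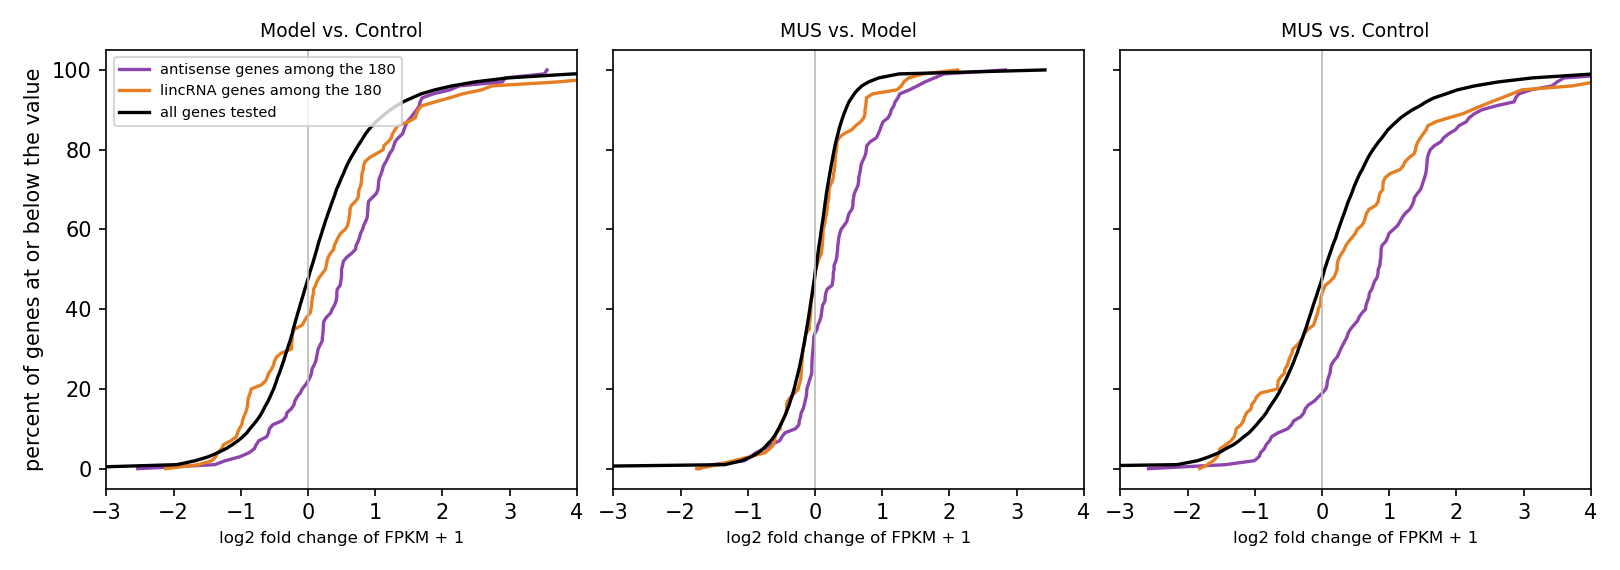
log2 fold changes of FPKM + 1 (x axis, drawn from -3 to 4, beyond which a few genes lie) against the percent of genes at or below the value (y axis) in the 3 comparisons, for the 99 antisense genes, the 81 lincRNA genes and all 9794 genes tested. The antisense curve lies right of that of all genes in each panel, with medians of 0.50 in Model vs. Control, 0.28 in MUS vs. Model and 0.84 in MUS vs. Control.

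The position of a gene beside its protein-coding neighbour was read from the coordinates and strands of the table. Of the 180 genes, 89 overlapped an expressed protein-coding gene on the opposite strand and 3 on the same strand, 12 were divergent (opposite strands, starts within 5 kb, bodies apart), 26 had such a gene elsewhere within 10 kb and 50 had none within 10 kb. The opposite-strand class had 19 increases and 1 decrease, with a median log2 fold change of 0.55 in Model vs. Control. The class with no neighbour had 11 increases and 4 decreases among 50 and a median of 0.27, and includes AW112010 and Ptgs2os2. The divergent class had 0 increases and 1 decrease among 12. Genes with 1 exon, which cannot be separated from unspliced RNA, had 0 increases and 1 decrease among 20, with a median of -0.24. Over all genes tested 9.5% were called higher and 5.56% lower, so a count of 0 among 12 or 20 genes is near the background, and the classes were not tested against each other.

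For the 89 opposite-strand pairs, the log2 fold change of the long noncoding RNA gene went with that of the protein-coding gene, at Pearson's r = 0.636 and Spearman's rho = 0.658 across pairs. For the 38 pairs whose bodies do not overlap these were 0.316 and 0.508. In MUS vs. Model, where 0 genes of these pairs were called, the opposite-strand pairs had r = 0.185 and rho = -0.0169, with the same sign in 50 of 89. The points are pairs of genes of the same 6 libraries and not replicates. Both genes were called in 12 pairs, in the same direction in 12 of 12, and all 12 overlapped on opposite strands. In 11 of these both rose and in the pair of Dnmt3aos and Dnmt3a both fell. Beside the pairs of Oasl1, Slamf7, Inhba and Il1b, the 11 held Gm26584 opposite the arginine transporter gene Slc7a2 (2.23 beside 4.40), Gm11842 opposite the cilium gene Tmem67 (1.65 beside 2.21) and Gm17017 opposite the nuclear body gene Sp140 (1.28 beside 2.48). The others were Gm15133 opposite Trim12a (1.27 beside 1.599), Etohd2 opposite Tut7 (1.42 beside 1.19), Gm16234 opposite Vta1 (1.19 beside 1.38) and Gm26637 opposite Sult6b1 (1.12 beside 1.31). Of the 50-base stretches of Gm17017, 54.1% also occur in other genes. Gm26584 had 0 and 0.217 FPKM in Control, then 1.81 and 8.53 in Model and 5.55 and 10.5 in MUS. Reads of 2 overlapping genes cannot be told apart without strand, and 89 of the 180 genes share some exon base with another gene, 5 of them over 50%. Among the 91 genes that share no exon base, 14 rose and 5 fell, with a median of 0.38. Some of these, such as Gm16015 and Gm48444, overlap the body of a coding gene, whose unspliced reads are not excluded by this count.

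**Figure D4:**
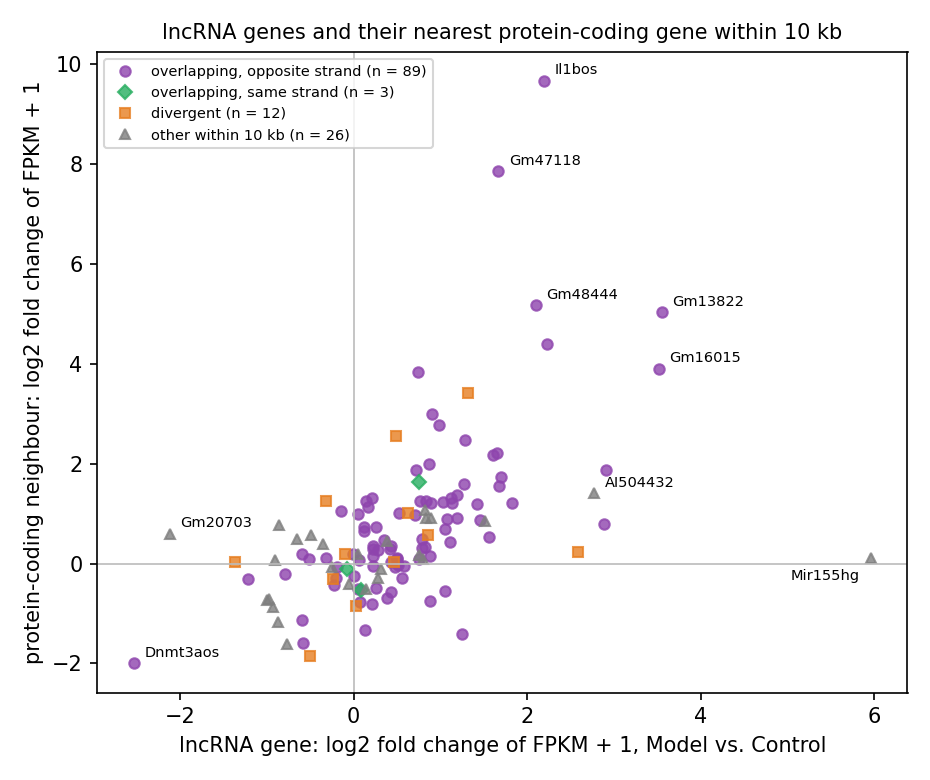
log2 fold change in Model vs. Control of each long noncoding RNA gene (x axis) against that of its nearest protein-coding gene within 10 kb (y axis), with symbols for the 4 classes of position. Il1bos and Gm47118 lie highest, beside Il1b (9.67) and Edn1 (7.85), while Mir155hg lies far right at 5.96 with its neighbour Mrpl39 at 0.12.

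Single pairs did not all move together. Gm47118, opposite the endothelin gene Edn1, had a log2 fold change of 1.67 that did not pass (limma adjusted p = 0.179), whereas Edn1 rose by 7.85. Gm20234, opposite the Schlafen gene Slfn2, had 1.61 (limma adjusted p = 0.218), whereas Slfn2 rose by 2.17. In both cases the antisense gene was low in Model replicate 1, at 0.354 and 0.494 FPKM, whereas Edn1 and Slfn2 were high in both Model libraries. BC051226, which starts 97 bases from the start of the histone chaperone gene Daxx on the other strand, had 1.31 ± 0.38 (limma adjusted p = 0.0575) beside 3.42 for Daxx, which rose. Gm47242, divergent from Fam111a, was listed at 0 in both Control libraries and had 1.19 and 15.4 FPKM in Model and 12.3 and 16.2 in MUS. Against a chosen floor of 3 fragments over the Control group, that is 62.3-fold higher in Model and 104-fold higher in MUS. The floor was chosen, so these folds are no strict minimum. Gm47242 missed the threshold for Model (limma adjusted p = 0.0693) and passed it with the replicate block (adjusted p = 0.0277). Gm34342, divergent from the homeobox gene Hlx, had 0.86 (limma adjusted p = 0.0784). Of the 3 genes on the same strand as their neighbour, Gdap10 beside Nampt had 0.708 and 5.43 FPKM in Control, compared with 0.921 and 15.2 in Model and 14.4 and 14.8 in MUS, Gm20707 had 0.08 and Gm15445 had -0.08, none of them called.

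The promoter windows of 76 of the 180 genes could be matched by symbol to the RefSeq table, 17 of them among the 33 that rose and 5 among the 7 that fell. The ISRE-like motif was in 6 of the 17 (35.3%) and in 0 of the 5, compared with 11 of all 76 and 8.56% of the 32851 windows in the table. The 6 were Mir155hg, Ptgs2os2, A530040E14Rik, Gm46224, Peak1os and Gm15133. In 3 of the 6 the RefSeq start lies over 500 bases from the start in the deposited table. With only the starts within 500 bases, the motif was in 3 of 10 windows. The NF-κB-like motif was in the window of AW112010 alone among the 17, and in 1.25% of all windows. The AP-1-like motif was in 2 of the 17, in that of Dnmt3aos among the 5 and in 7.81% of all windows. These are counts of letters in few windows, and they were not tested.

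The comparison of MUS vs. Model gives the difference that muscone made to the stimulated cells. None of the 180 genes passed in limma (0 of 180), as was the case for 0% of all genes tested. The study, with its own count test at the same thresholds, reported genes called in this comparison in both directions, most of them lower. That test was not repeated here, so the 0 holds for limma on these FPKM. The smallest adjusted p among the 180 was 0.299. At an unadjusted p under 0.05 there were 27 of the 180 genes, 21 of them higher and 6 lower in MUS, compared with 825 of all 9794 genes, of which 256 were higher and 569 lower. Both MUS libraries were above both Model libraries in 46 of the 180 genes (against 21.2% of all genes). They were below both Model libraries in 23 (against 21% of all genes). These counts are a description, and nothing is read from their difference to all genes. The median change of the 180 genes moved with the Model library that was left out, as given below. By each of the other analyses that kept all 6 libraries, 0 of the 180 genes were called, including voom on the recovered fragments.

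The median of these differences depended on which Model library was kept. With 2 libraries per group, an outlying Model library cannot be told apart from a difference between the treatments, and neither was tested. The median log2 fold change of MUS vs. Model was 0.13 over the 180 genes, 0.28 over the antisense genes and 0.00 over the lincRNA genes, against 0.01 over all genes. Without Model replicate 1 the median was -0.01 over the 180 genes and 0.01 over all genes. Without Model replicate 2 it was 0.28 over the 180 genes and -0.02 over all genes. In 33 of the 180 genes (18.3%), 24 of them antisense, Model replicate 1 was below the higher Control library while Model replicate 2 and both MUS libraries were above both Control libraries. The same held for 6.50% of all genes tested. The limit on the mean level can favour this pattern as well, since it needs stimulated libraries above Control. The 2 shares are therefore a description, and nothing is read from their difference.

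The 8 genes with the smallest unadjusted p, none of them called, were on both sides. Gm45016, antisense to Btbd1, had 0.331 and 0.221 FPKM in Control, against 0.537 and 0.815 in Model and 2.51 and 3.11 in MUS, a log2 fold change in MUS vs. Model of 1.18 ± 0.24 (limma adjusted p = 0.299). Of the 8 it was the gene whose difference moved least with the Model libraries, at 1.06 without replicate 1 and 1.30 without replicate 2. BC051226 had 7.09 and 3.43 FPKM in Model and 0.338 and 1.45 in MUS, against 1.38 and 1.43 in Control, a log2 fold change of -1.73 ± 0.38 (limma adjusted p = 0.349). Its MUS libraries were thus near or below the Control level while both Model libraries were above it.

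AC168220.3 was the 1 gene of the 8 that rose in Model vs. Control, a call that 9 of 18 alternatives kept, and it had 0.821 and 0.764 FPKM in MUS, below both Model libraries and above both Control libraries (-0.87 ± 0.25, limma adjusted p = 0.447). Gm49207, a gene with 1 exon, had 2.19 in each Control library, 5.59 and 2.54 FPKM in Model and 1.19 and 1.32 FPKM in MUS (-1.10 ± 0.31, limma adjusted p = 0.425). Gm17201 had 10.2 and 11.9 FPKM in Control, compared with 14.2 and 11.7 in Model and 5.09 and 7.42 in MUS (-0.96 ± 0.26, limma adjusted p = 0.400), and 59.5% of its exon bases overlap with another gene.

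The others of the 8 were higher in MUS. Gm39469 had 2.28 and 1.04 FPKM in Control, against 0.769 and 4.62 in Model and 13.6 and 11.9 in MUS (2.12 ± 0.52 in MUS vs. Model, limma adjusted p = 0.379). Gm20234 had 0 and 0.792 FPKM in Control, compared with 0.494 and 10.2 in Model and 29.4 and 26.9 in MUS (2.83 ± 0.83, limma adjusted p = 0.463), a difference of 1.38 without Model replicate 1 and of 4.29 without Model replicate 2. Gm17210, antisense to Parg, was listed at 0 and 0.825 FPKM in Model and had 3.05 and 2.68 in MUS, against 0.447 and 1.56 in Control (1.51 ± 0.38, limma adjusted p = 0.382). Among the long-studied genes, Malat1 was higher in both MUS libraries than in both Model libraries, at 1.30 ± 0.51 (limma adjusted p = 0.551). For the leading genes of Model vs. Control the MUS libraries lay within or beside the Model range, at -0.01 for Mir155hg, 0.00 for AW112010 and -0.20 for Ptgs2os2, where the SE was 1.04, 1.00 and 0.37.

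**Figure D5:**
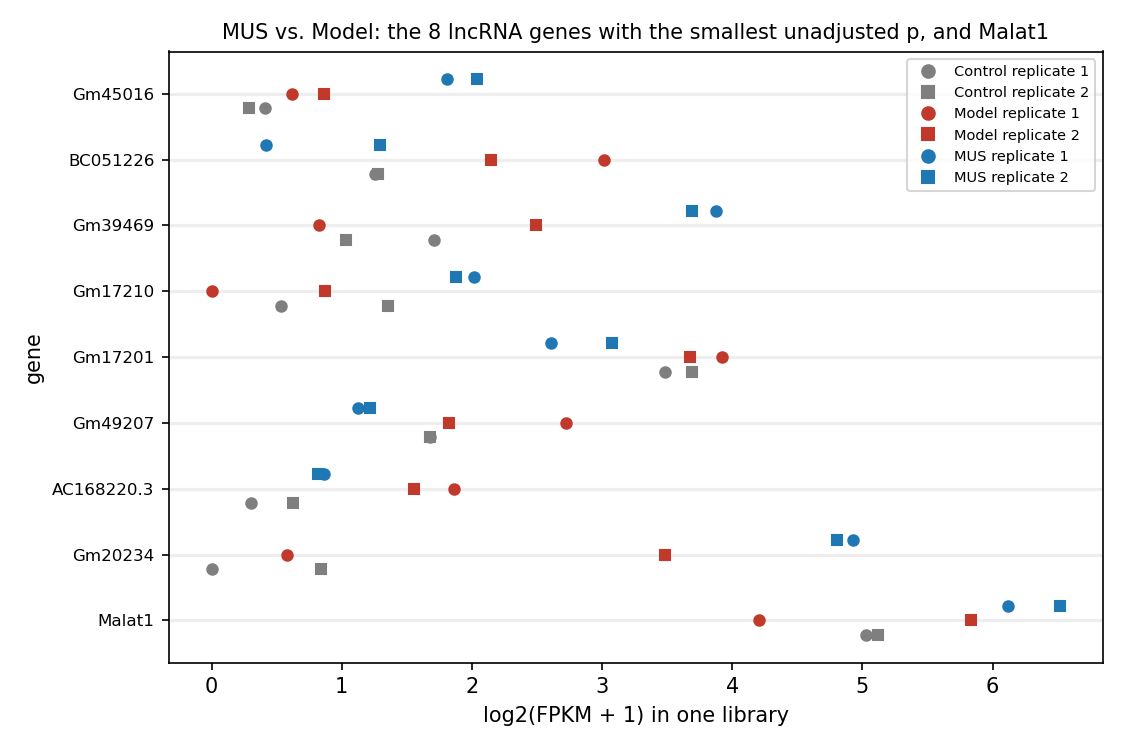
log2(FPKM + 1) in each library (x axis) of the 8 genes with the smallest unadjusted p in MUS vs. Model and of Malat1 (y axis), with colours for the groups and circles and squares for replicates 1 and 2. The MUS points do not overlap with the Model points in any row, but in Gm39469, Gm20234 and Malat1 the 2 Model points are over 1 log2 unit apart.

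The comparison of MUS vs. Control uses the same Control libraries as Model vs. Control, so its values are given beside the former and not as a repeat of it. In it 46 of the 180 genes rose (25.6%), against 11.3% of all genes tested, and 11 fell (6.11%), against 8.91%. The median log2 fold change was 0.64. Without MUS replicate 1 there were 5 increases and 0 decreases, without MUS replicate 2 15 and 3, and without Control replicate 1 23 and 5. With the total scaling 39 rose and 25 fell, which lowered the share of increases among the calls from 80.7% to 60.9%, and over all genes 738 rose and 1953 fell. The largest increases were those of Mir155hg (5.95 ± 1.04), Gm16015 (4.45 ± 0.70), Gm20234 (4.44 ± 0.83), AW112010 (4.37 ± 1.00) and Ptgs2os2 (4.15 ± 0.37), with limma adjusted p between 0.00136 and 0.0227. Gm47242 (3.92), Gm47118 (3.57) and Gm48444 (3.50) followed. The fitted change of Gm47242 depends on the added 1 FPKM, since Control was listed at 0, and Gm47118 had 1 fragment in Control.

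Among the named genes that rose in MUS vs. Control are some that missed a threshold in Model vs. Control, and none of them was called in MUS vs. Model, the test of that difference itself. Gm20234 and Gm47242, whose values are given above, are 2 of them, and Gm47118 had 0.109 and 0 FPKM in Control, 0.354 and 7.26 in Model, then 16.9 and 7.70 in MUS. The others include Gm16685 with 5.15 and 4.56 FPKM in MUS (log2 fold change 2.17 ± 0.39 against Control, limma adjusted p = 0.0103). Kdm6bos with 3.47 and 3.66 FPKM (1.80 ± 0.35, limma adjusted p = 0.0133) and Gm39469 (2.41 ± 0.52, limma adjusted p = 0.0181) also belong to them. Adap2os, Gdap10 and Gm15247 missed the threshold here (limma adjusted p = 0.106, 0.139 and 0.0543) and passed it with the replicate block (adjusted p = 0.0349, 0.0330 and 0.0203).

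The 11 genes that fell in MUS vs. Control were led by Dnmt3aos (-2.58 ± 0.36, limma adjusted p = 0.00464) and Gm20703 (-1.82 ± 0.26, limma adjusted p = 0.00527). Gm8066 and Gm5547 were also among them. Gm8066 had 3.88 and 1.44 FPKM in Control, against 0.584 and 1.06 in Model and 0.136 and 0.254 in MUS (-1.53 ± 0.36, limma adjusted p = 0.0245). Gm5547 had 2.80 and 2.58 FPKM in Control, compared with 1.51 and 0.567 in Model and 0.581 and 0.386 in MUS (-1.32 ± 0.28, limma adjusted p = 0.0181). Tmem250-ps went from 7.33 and 4.44 FPKM in Control to 1.94 and 2.47 in Model and 1.09 and 1.12 in MUS, with all 3 groups apart.

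The summed level of the 180 genes was 525 and 707 FPKM in Control, against 2090 and 1836 in Model and 2260 and 1990 in MUS. Without AW112010 and Mir155hg it was 514 and 573 FPKM in Control, compared with 798 and 1016 in Model and 1080 and 1110 in MUS, so that Model replicate 1 lay between the Control libraries and the other 3 stimulated ones. Genes annotated as sense intronic, which lie within introns of other genes, summed to 40.1 and 57.1 FPKM in Control, against 58.2 and 114 in Model and 115 and 130 in MUS. Rows annotated as TEC, transcripts whose status is still to be verified, summed to 194 and 305, 381 and 526, and 518 and 568 FPKM in the same order. Their part in the levels of the 180 genes was not tested.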

How the data were processed

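The authors deposited FPKM values for 54532 genes in 6 libraries, which the study's methods credit to RSEM. The submitters' processing notes name HISAT2, featureCounts 1.5.0-p3 and the build GRCm39, without roles. The coordinates in the table are those of GRCm38, since 98.3% of 54495 gene identifiers shared with GENCODE M21 have the same start and end there, as have 177 of the 180 genes. Libraries were made from poly-A RNA with random hexamers, and the protocol names no strand marking. Multiplying FPKM by gene length gave whole multiples of a unit particular to the library (tolerance 0.1 of the unit), and so the fragments per gene. The per-million scale behind the deposited FPKM was 0.909 to 1.45 times the fragments on genes, highest in Control, for a reason not given in the sources used here. No column was without a sample (0 columns).

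For the 9794 genes whose mean reached 1 FPKM, log2(FPKM + 1) was fitted with limma 3.58.1 in R 4.3.3 (lmFit, contrasts.fit, eBayes with trend), in 1 model of 3 groups, and p-values were adjusted by Benjamini-Hochberg over these genes (two-sided). The pseudocount of 1 shrinks the changes of low genes. The residual degrees of freedom were 3, plus 4.04 that limma borrowed across genes. The fit was tested on simulated data. The study's own count test was not repeated, and the recovered fragments were tested with voom as an alternative. Python 3.11.15 with pandas 2.3.3, NumPy 2.4.6, SciPy 1.17.1 and Matplotlib 3.10.9 did the rest. Copies were sought as 50-base stretches found in transcripts of other genes.

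The labels give the replicate number as the batch. Differences between replicates 2 and 1, correlated across genes, had r = 0.12 between Control and Model, r = 0.14 between Model and MUS and r = -0.09 between Control and MUS, and the number was a block in an alternative fit. Genes named are those in lists of nuclear, host, immune and antisense transcripts, the 8 largest increases and decreases of each comparison among calls without overlap (where under 8 were called, the 8 smallest p), the 8 highest and 3 lowest levels, 3 genes dominated by 1 library and up to 4 pairs in each class of neighbour. Other genes named were chosen after their values were seen. The 180 genes and the lists were chosen with earlier results of these data known. Alternatives changed the pseudocount, filter, scaling, trend, block, groups fitted and libraries. A further alternative kept the fit and dropped the fold threshold, which by construction can lose no call.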

Additional observations from a re-analysis of the deposited data

How the results depend on the processing

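Counts of genes that rose and fell in Model vs. Control were 33 and 7. They were 21 and 4 with a pseudocount of 2, 5 and 1 with no filter on low values, 21 and 22 with fragment-total scaling, 21 and 23 with voom on the recovered fragments and 13 and 2 when only the 2 groups compared were fitted. With a replicate left out they ranged from 13 to 33 and from 2 to 12. The counts in MUS vs. Control (46 and 11) were 9 and 1 with no filter, where many more genes with values near 0 were tested, fell 25 with fragment-total scaling and fell 26 with voom, and ranged from 5 to 55 and from 0 to 16 with a replicate left out. MUS vs. Model had 0 calls with all libraries and from 0 to 4 with a replicate left out.

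The median change of the 180 genes in Model vs. Control (0.43, log2) was 0.74 with a pseudocount of 0.1, 0.15 with fragment-total scaling and 0.23 with voom, and ranged from 0.17 to 0.67 with a replicate left out. Fragment-total scaling without Model replicate 1, added after seeing the data, gave 8 increases and 2 decreases in Model vs. Control, 26 decreases in MUS vs. Control and a median of -0.049 in MUS vs. Model, whose median ranged from -0.01 to 0.28 with a replicate left out. In the fit with the replicate number as a block, counts were 38 and 9 in Model vs. Control, 0 in MUS vs. Model and 56 and 12 in MUS vs. Control. The block kept all 40 and 57 calls and, beyond the genes named above with it, changed no call of a named gene. No call of a named gene changed direction under any alternative listed here. Except where the construction of the alternative names it, the cause was not tested. Depth limits the low genes: 3 fragments, the floor chosen for a listed 0, equal 0.131 to 0.213 FPKM for 1 kb of gene length.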
